A study of Homo sapiens with 36 samples.

Results

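TET1 binding in HEK293T cells given an siRNA named for CHD5 (siCHD5) was compared with binding in cells given the siRNA labelled siNC, the only one not named for a gene and therefore taken as the control. HEK293T is a human embryonic kidney line that carries the SV40 large T antigen. The members are the distinct TET1 peak intervals of both lists: 28072 in siNC and 32208 in siCHD5, 60280 of the 60933 intervals in the 6 peak lists of the series. Intervals of the lists were matched when they shared 1 bp or more, which gave shared, siNC-only and siCHD5-only sets. Each group comprised 3 libraries from a TET1 pull-down (chromatin immunoprecipitation followed by sequencing, ChIP-seq) and 3 from input chromatin. The labels name no other treatment and no genetic change, and do not say that replicates came from separate cultures. Each group has 1 peak list, taken as called on the 3 pooled replicates, so no spread between replicates could be computed and no difference carries a p-value. Intervals around shares are exact Clopper-Pearson 95% intervals and cover counting error only. Peak lists give no CHD5 or TET1 level, no read total per library and no marker gene of the cell type, so none of these was checked.

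TET1 is a dioxygenase that oxidises 5-methylcytosine in DNA, the first step of active demethylation. CHD5 is a chromatin-remodelling ATPase of the CHD family that can take the place of CHD3 or CHD4 in the nucleosome remodelling and deacetylase (NuRD) complex, and its expression is known mainly from brain and testis. The question was where TET1 was found on chromatin when a NuRD ATPase was targeted. Regions are given by position on the human build hg19, counted from 1, because the gene table at hand is of another assembly. Genes, promoters and base sequence were therefore not used here.

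Most TET1 sites were found in both conditions. Of the siNC intervals 23958 (85.3%, interval 84.9 to 85.8) had a siCHD5 interval, and 4114 (14.7%) did not. Of the siCHD5 intervals 23955 (74.4%, 73.9 to 74.9) had a siNC interval, and 8253 (25.6%) did not. The lists together marked 36301 separate regions. In bases, 6.74 Mb were covered by both lists, which is 76.1% of the 8.86 Mb covered in siNC and 66.0% of the 10.2 Mb covered in siCHD5. The siCHD5 list held 1.15 times as many intervals as the siNC list. When both were limited to the 28072 intervals of highest −log10 q-value, the shares matched were 82.2% of siNC and 82.2% of siCHD5. Nearly all matches joined 1 interval to 1 interval, so lists of equal length give nearly equal shares by construction, and only the level of 82.2% is a measurement.

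The number of reads at a site went with whether it was found in both lists. Fold enrichment and −log10 p-value of a peak together give its pull-down reads at the summit (the pileup) and the control level that the peak caller used there (the background). The background is in units of reads but is not a count of control reads at the site. It has a lowest value in each list, 2.50 in siNC and 2.80 in siCHD5. Shared intervals had a median of 36 pull-down reads in siNC and 44 in siCHD5. The siNC-only intervals had a median of 18 reads, and the siCHD5-only intervals had 21. The lists start at 10 reads. Reads were not scaled between the lists, and shared sites had 1.21 times as many in siCHD5 at the median. The same class of reads therefore need not mean the same signal in both lists. At 10 to 14 reads 73.6% of siNC intervals (71.3 to 75.8) and 89.5% of siCHD5 intervals (87.8 to 90.9) were unmatched. At 20 to 24 reads the shares were 25.1% and 54.7%, and at 30 to 39 reads they were 4.88% and 18.1%. Among intervals with 60 reads or more, 14 of 2872 siNC intervals (0.487%) and 40 of 5822 siCHD5 intervals (0.687%) were unmatched. Those few had a high background at the median, 160 in siNC and 24.3 in siCHD5. The medians were 5.81 and 5.76 for shared intervals of the same class. Not every unmatched interval of this class had a high background. It was 4.20 at the siNC-only interval on chromosome 6 at 118830213 to 118830533 (61 reads). At the siCHD5-only interval on chromosome 14 at 65630845 to 65631206 (67 reads) it was 3.58.

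**Figure D1:**
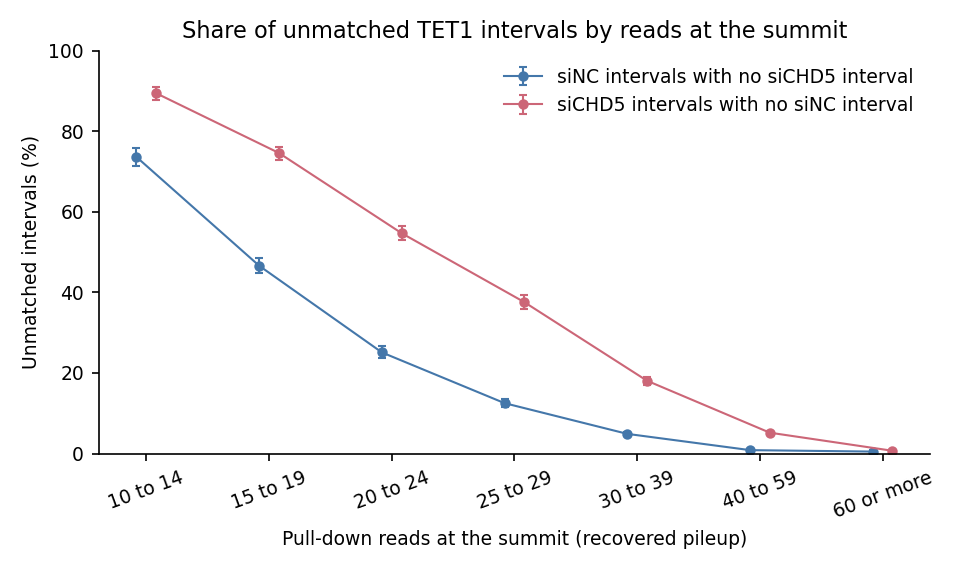
Share of unmatched intervals (y axis, percent) by pull-down reads at the summit (x axis) in siNC (blue) and siCHD5 (red); bars are exact 95% intervals for counting error. In each class the siCHD5 share lies above the siNC share, and both drop below 1% at 60 reads or more. Reads are not scaled between the lists, so classes are not matched for signal.

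Unmatched sites were narrower and lower than shared ones. Median width was 250 bp in the siNC-only set (quartiles 223 and 294) and 250 bp in the siCHD5-only set (219 and 299). Shared intervals measured 307 bp in siNC (260 and 364) and 315 bp in siCHD5 (267 and 373). The difference in width was small among weak peaks and larger among strong ones. In the lowest 25% of siNC by fold, siNC-only intervals measured 247 bp and shared ones 253 bp. In the highest 25% the values were 323.5 bp for 42 siNC-only intervals and 360 bp for shared ones. The siCHD5 list had the same order, with 241 bp against 254 bp in its lowest 25% and 315 bp against 364 bp in its highest. Median fold, as the authors' peak caller gave it within each list, was 4.17 in siNC-only and 7.25 in shared siNC intervals, and 4.47 in siCHD5-only and 8.00 in shared siCHD5 intervals.

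**Figure D2:**
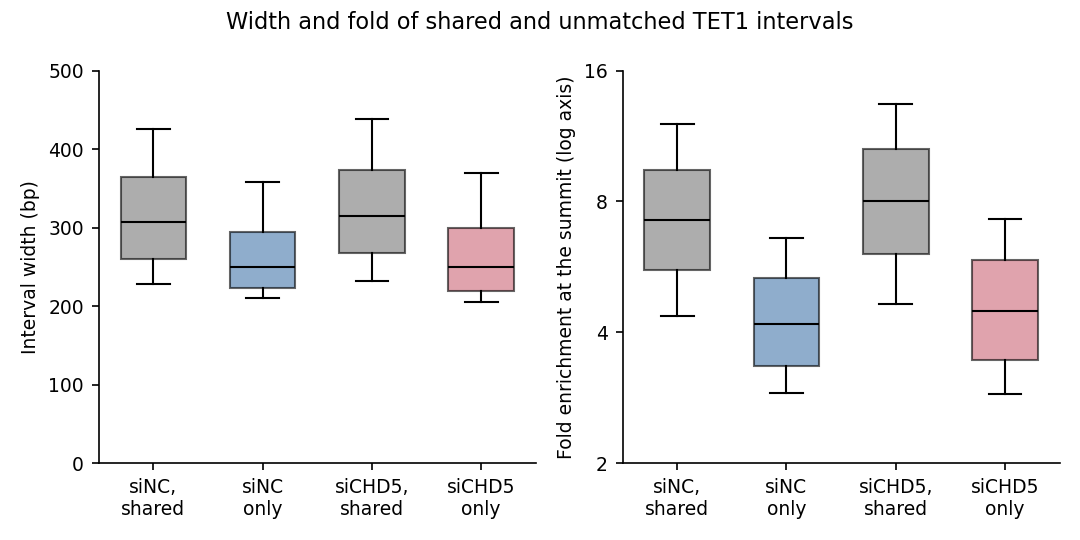
Interval width in bp (left) and fold enrichment at the summit on a log axis (right) for shared and unmatched intervals of each list; boxes span the quartiles, lines are medians and whiskers reach the 10th and 90th percentiles. Medians of width are 250 bp in both unmatched sets and 307 and 315 bp in the shared sets.

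A minority of unmatched sites lay close to the calling threshold, though a larger share than among shared sites. The median −log10 q-value was 5.21 in siNC-only and 6.96 in siCHD5-only intervals, against 19.3 and 24.8 in the shared intervals of siNC and siCHD5. A −log10 q-value under 2 was found for 14.2% of siNC-only intervals (13.1 to 15.3) and 0.743% of shared siNC intervals. In siCHD5 these shares were 9.95% (9.31 to 10.6) and 0.493%. Summits of shared intervals were more often central. The summit fell within 40 to 60% of the interval's length in 78.6% of shared siNC intervals and 79.0% of shared siCHD5 intervals, against 56.4% of siNC-only (54.9 to 58.0) and 60.3% of siCHD5-only intervals (59.2 to 61.3). Several summits in 1 interval were rare throughout: 1.36% of shared siNC and 1.69% of shared siCHD5 intervals, 1.02% of siNC-only and 1.24% of siCHD5-only intervals. The control background stood within 1% of the lowest value of its list in 22.2% of siNC-only and 31.6% of siCHD5-only intervals, and in 17.4% and 18.4% of the shared ones.

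Most unmatched sites lay far from any peak of the other list. The median distance from a siNC-only interval to the nearest siCHD5 interval was 22169 bp (quartiles 7234 and 55850), over 4110 intervals with a siCHD5 interval on the same sequence. From a siCHD5-only interval to the nearest siNC interval it was 24718.5 bp (8305.5 and 62507, 8250 intervals). Within 1000 bp of the other list lay 234 siNC-only intervals (5.69%, 5.00 to 6.45) and 384 siCHD5-only intervals (4.65%, 4.21 to 5.13). Within 100 bp there were 14 and 16. Neighbours of the same list were about as far away: the nearest other siNC interval lay 25192 bp from a siNC-only and 21079 bp from a shared siNC interval at the median. In siCHD5 these medians were 20461 and 18396 bp.

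The cases on either side of the matching limit were weak peaks. The smallest overlaps were 4 bp, on chromosome 11 between the siNC interval at 47290325 to 47290527 (12 reads) and the siCHD5 interval at 47290524 to 47290854 (18 reads), and on chromosome 15 between 44718937 to 44719361 in siNC (16 reads) and 44719358 to 44719604 in siCHD5 (11 reads). The closest intervals without overlap included siNC at 9600785 to 9601080 on chromosome 12, which lay 11 bp from the siCHD5 interval at 9600323 to 9600773. Fold there was 2.77 in siNC and 3.06 in siCHD5. On chromosome 3 the siNC interval at 23962631 to 23962881 and the siCHD5 interval at 23962279 to 23962616 lay 14 bp apart, with folds of 2.60 and 2.74. Of all 1-to-1 pairs 15 overlapped by under 50 bp.

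Where both lists had a peak, the summit was at nearly the same base. Matching gave 23979 overlapping pairs, of which 23890 joined 1 interval to 1 interval. Their strongest summits lay a median of 10 bp apart (quartiles 4 and 18). Summits were within 10 bp in 53.1% of pairs (52.5 to 53.8), within 50 bp in 96.4% (96.1 to 96.6) and within 100 bp in 98.5%. Of the 361 pairs with summits over 100 bp apart, 135 had more than 1 summit in either interval. The offset was smaller at sites with more reads: 42 bp at the median for siNC intervals of 10 to 14 reads, 15 bp at 20 to 24 reads, 10 bp at 30 to 39 reads and 6 bp at 60 reads or more.

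**Figure D3:**
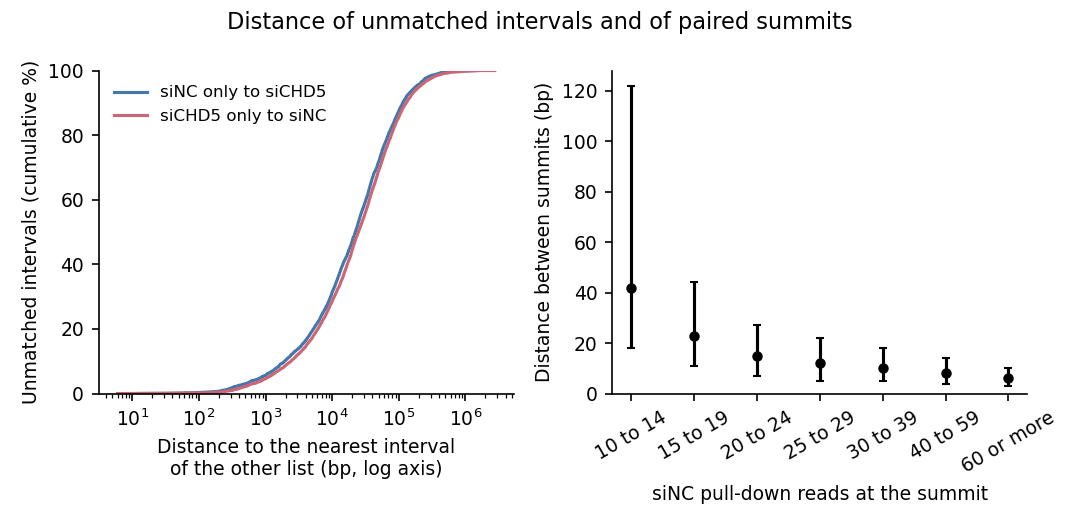
Left, cumulative share of siNC-only (blue) and siCHD5-only (red) intervals by distance to the nearest interval of the other list in bp on a log axis. Right, distance between summits of 1-to-1 pairs in bp (points are medians, bars span the quartiles) by siNC pull-down reads; the median goes from 42 bp at 10 to 14 reads to 6 bp at 60 or more.

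Paired intervals were also alike in extent. The median overlap was 270 bp, and in 51.6% of pairs the shorter interval lay wholly within the longer. The siCHD5 interval was the wider one in 12831 pairs (53.7%) and the siNC interval in 10912 (45.7%), with a median difference of 7 bp (quartiles −42 and 57). Splitting and joining were rare: 21 siNC intervals met 2 siCHD5 intervals, and 24 siCHD5 intervals met 2 siNC intervals. The widest such siNC interval, chromosome 17 from 39845140 to 39846478, had 13.6-fold enrichment. Its siCHD5 partners were 39845171 to 39845476 (4.24-fold) and 39845899 to 39846385 (8.92-fold), 422 bp apart. The widest siCHD5 interval with 2 siNC partners, chromosome 16 from 2010884 to 2012399 (5.41-fold), overlapped siNC intervals at 2010818 to 2011741 (4.02-fold) and 2012075 to 2012402 (2.68-fold). A strong siNC interval at chromosome 8 135917763 to 135918757 (15.1-fold) met siCHD5 peaks of 13.5-fold and 11.4-fold, 339 bp apart. A strong siCHD5 interval at chromosome 1 148597988 to 148599093 (14.9-fold) met siNC peaks of 3.03-fold and 10.9-fold, 207 bp apart.

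The widest shared sites reached beyond 1 kb in both lists. In siNC they were chromosome 14 at 74416674 to 74418015 (1342 bp, 6.29-fold), chromosome 17 at 39845140 to 39846478 (1339 bp) and chromosome 1 at 16992647 to 16993973 (1327 bp, 7.10-fold, 3 summits). In siCHD5 they were chromosome 12 at 6646776 to 6648415 (1640 bp, 16.3-fold, 3 summits), chromosome 16 at 2010884 to 2012399 (1516 bp) and chromosome 5 at 180661795 to 180663302 (1508 bp, 4.43-fold, 3 summits). Unmatched intervals stayed below this: the widest measured 904 bp in siNC (chromosome 17 at 74561559 to 74562462, 2.94-fold) and 922 bp in siCHD5 (chromosome 10 at 60015735 to 60016656, 4.67-fold).

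The order of the shared sites was kept more closely in pull-down reads than in fold. Across the 23890 pairs Spearman's rho between the lists was 0.612 for fold, 0.762 for −log10 q-value and 0.857 for pull-down reads (23888 pairs with both values). These are correlations across sites that share the genome and the peak caller, given as descriptions. Of the 100 intervals of highest fold in each list 39 formed pairs with each other, and of the 1000 highest 367 did. Ranked by pull-down reads these numbers were 78 and 698. Each of the 1000 intervals of highest fold in either list had a partner somewhere in the other.

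Shared sites had more pull-down reads and a higher background in siCHD5 at the median. Pull-down reads were 1.21 times those of siNC at the median (quartiles 1.04 and 1.40) and higher in siCHD5 at 78.6% of pairs. The background was 1.12 times that of siNC (0.918 and 1.38), and fold was 1.10 times (0.868 and 1.37). The lowest background of the lists differed by the same 1.12 times, 2.80 reads in siCHD5 against 2.50 in siNC. With 1 list per group these ratios could not be set against replicate error, and depth and condition cannot be told apart. Pull-down reads differed at least 2-fold at few pairs: 397 (1.66%) were higher in siCHD5 and 9 (0.0377%) were higher in siNC. On the log2 scale the ratio between lists had an SD across pairs of 0.49 for fold, 0.33 for pull-down reads and 0.48 for background. The ratio of fold went with that of background (rho −0.736) and with that of pull-down reads (rho 0.588), both of which enter the fold by construction.

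**Figure D4:**
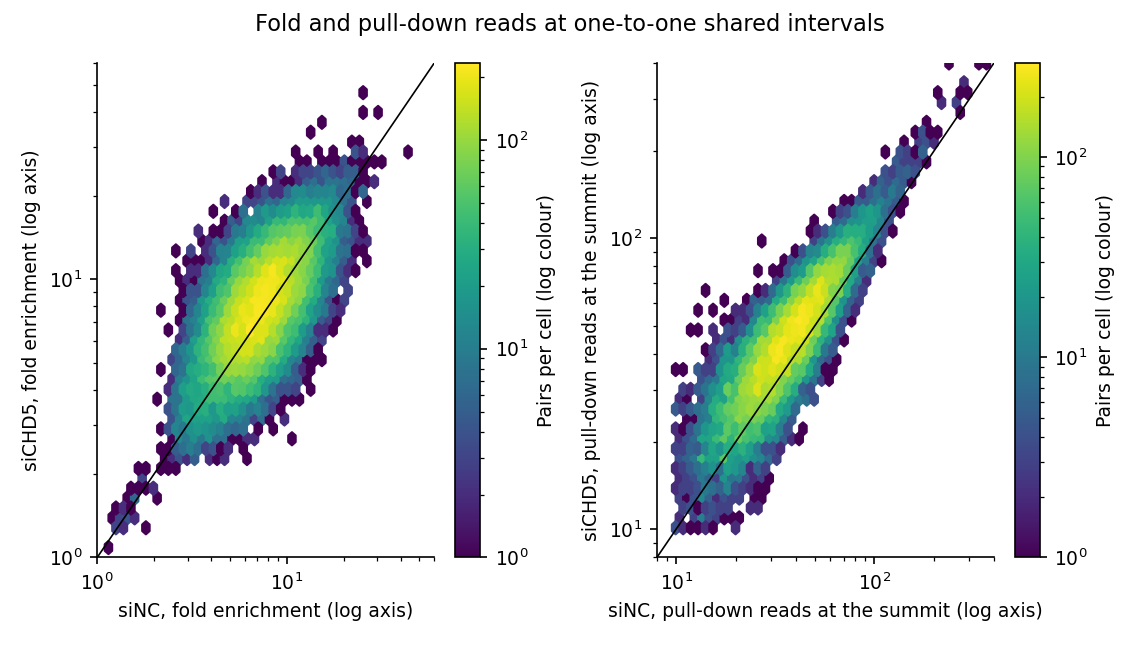
Fold enrichment (left) and pull-down reads at the summit (right) of 1-to-1 shared intervals in siNC (x axis) and siCHD5 (y axis), log axes, colour for the number of pairs and the diagonal for equal values; 24 of the 23890 pairs fall outside the right panel, which ends at 400 reads. The cloud is narrower for reads (rho 0.857) than for fold (rho 0.612).

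Rank within the own list was given as a percentile by fold, where 100 is the highest. Lists of unequal length make this a description and not a change in binding. The percentile differed by more than 25 points in 6618 pairs (27.7%) and by more than 50 points in 1013 (4.24%). Pairs from the lowest 10% of siNC had a median siCHD5 percentile of 16.7 (quartiles 6.79 and 32.7), and those from the highest 10% had 89.9 (76.9 and 96.3). These cover 1197 and 2799 pairs. Unmatched intervals, which have no siCHD5 rank, numbered 1602 of 2809 in the lowest 10% and 7 of 2813 in the highest.

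The sites picked as ranking far higher in siCHD5 had more pull-down reads and, at most of them, a lower background. Fold is computed from both, so picking by fold rank favours such pairs, and the values only describe the sites picked. At chromosome X 38034460 to 38034678 the siNC peak had 34 reads over a background of 9.51 (3.33-fold, percentile 5.95). The siCHD5 peak at the same summit within 6 bp had 67 reads over 3.67 (14.6-fold, percentile 95.1). On chromosome 6 at 74019928 to 74020224 siNC had 18 reads over 6.34 (2.59-fold) and siCHD5 had 47 over 2.88 (12.4-fold). On chromosome 6 at 88031924 to 88032243 the background was alike, 3.70 and 3.58, while the reads were 13 and 58 and the summits lay 118 bp apart. Among the 10 pairs with the largest gain in percentile, pull-down reads in siCHD5 were 1.81 to 4.57 times those in siNC, and the background was lower in siCHD5 at 9. Summits lay 16 bp apart or less at 6 of these pairs, and 57, 69, 118 and 223 bp apart at the rest.

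The sites picked as ranking far higher in siNC had a higher background in siCHD5 and, at most of them, fewer pull-down reads. The same choice by fold rank favours this pattern. At chromosome 8 57883344 to 57883743 siNC had 38 reads over 2.69 (10.6-fold, percentile 85.1) and siCHD5 had 24 over 8.42 (2.65-fold, percentile 1.35). At chromosome 17 21032311 to 21032694 the reads were 48 and 43, and the background was 2.73 and 10.2, which gave 13.1-fold and 3.93-fold. At chromosome 7 31174141 to 31174457 the reads were 45 and 22 over 2.50 and 4.43. In all 10 pairs with the largest loss in percentile the background was higher in siCHD5, at 4.43 to 10.6 reads against 2.50 to 4.75. Pull-down reads in siCHD5 were 0.489 to 1.10 times those in siNC and higher in siCHD5 at 1 of the 10, where the median over all pairs was 1.21 times. Their summits lay 16 bp apart or less in each of the 10. Whether the background or the pull-down set these ranks was not tested.

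High-fold sites present in 1 list were few. Of the 9877 siNC intervals of 8-fold or more 116 had no siCHD5 interval (1.17%), and of the 12507 such siCHD5 intervals 509 had no siNC interval (4.07%). The siNC-only site of highest fold, on chromosome 2 at 50763502 to 50763823, had 48 reads and lay 6411 bp from the nearest siCHD5 interval. Those on chromosome 1 at 162361987 to 162362270 and chromosome X at 37604633 to 37604999 had 46 and 53 reads, with the next siCHD5 interval 34247 and 79517 bp away. The most reads among the 10 highest stood at chromosome 6 118830213 to 118830533, with 61 over a background of 4.20 (11.9-fold). The 10 siNC-only sites of highest fold had 38 to 61 reads, within the range of shared siNC intervals (10th to 90th percentile 21 to 62).

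The siCHD5-only sites of highest fold had 48 to 67 reads. On chromosome 5 at 179061290 to 179061965 the peak was 676 bp wide, with 59 reads and the nearest siNC interval 20608 bp away. On chromosome 6 at 162169865 to 162170188 it had 58 reads, 53481 bp from siNC. The site on chromosome 14 at 65630845 to 65631206 had 67 reads over a background of 3.58, 6521 bp from siNC. On chromosome 17 at 36762520 to 36762952 the nearest siNC interval was 1202 bp away. The fifth to the seventh in fold were chromosome 15 at 90190408 to 90190717 (13.7-fold, 51 reads), chromosome 8 at 37978187 to 37978492 (13.1-fold, 49 reads) and chromosome 10 at 86134716 to 86135076 (13.0-fold, 64 reads).

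Some of these sites were isolated. Among unmatched intervals of 8-fold or more, chromosome 16 from 63323746 to 63324047 in siCHD5 (8.67-fold, 32 reads) was the farthest from the other list, with 1163148 bp to the next siNC interval. Others lay on chromosome 1 at 187897521 to 187897805 (853605 bp away, 8.41-fold) and chromosome 10 at 110304308 to 110304674 (729463 bp, 10.5-fold). The farthest siNC-only site was on chromosome 1 at 164135754 to 164136041 (9.44-fold, 32 reads), 435931 bp from siCHD5, followed by chromosome X at 30160144 to 30160346 (362172 bp, 8.24-fold). Distances over 1 Mb were found for 20 siCHD5-only and 2 siNC-only intervals of any fold.

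Every autosome and chromosome X had more intervals in siCHD5 than in siNC, 23 of 23. The siCHD5 list was 1.15 times as long, and chromosomes are parts of the same lists and not repeats. The number in siCHD5 was 1.09 times (chromosome 15) to 1.27 times (chromosome 9) that in siNC. The siNC-only share ran from 9.87% on chromosome 19 (103 of 1044, 8.12 to 11.8) to 18.1% on chromosome 21 (49 of 270, 13.7 to 23.3), around the 14.7% of the whole list. Chromosome 4 had 18.0% (252 of 1400, 16.0 to 20.1). The siCHD5-only share ran from 22.3% on chromosome 15 (248 of 1111, 19.9 to 24.9) to 30.7% on chromosome 9 (356 of 1159, 28.1 to 33.5), around 25.6%. Chromosome 18 followed with 29.8% (168 of 564, 26.0 to 33.7). Chromosomes 9 and 18 also had the lowest median pull-down reads of the 23, 29 in siNC and 32 in siCHD5. Over the whole lists these medians were 33 and 37. Chromosome 16, with 31 and 33 reads, had a siCHD5-only share of 25.8%. Whether the number of reads set the shares of chromosomes was not tested.

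**Figure D5:**
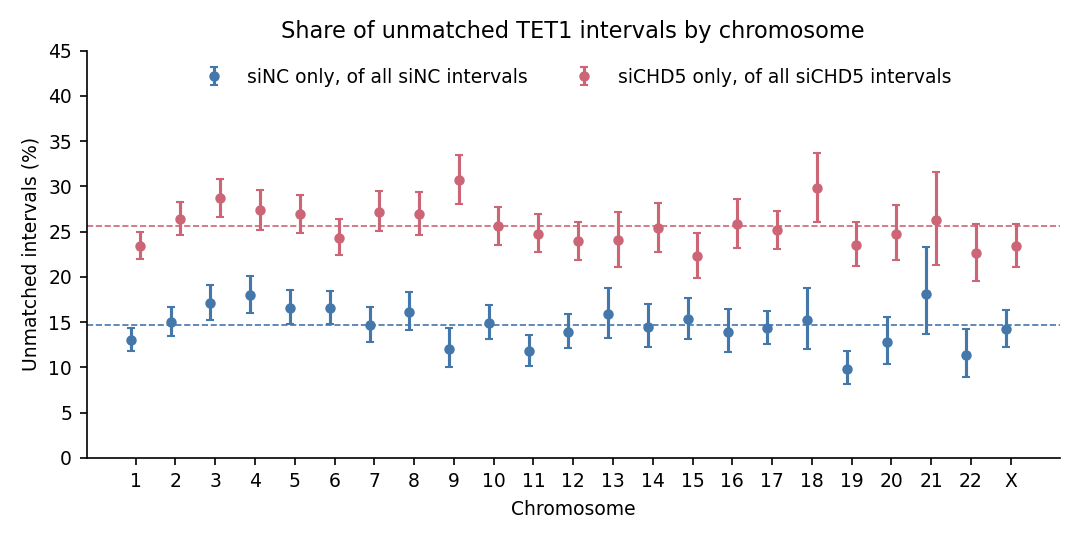
Share of siNC intervals without a siCHD5 interval (blue) and of siCHD5 intervals without a siNC interval (red), in percent, by chromosome; bars are exact 95% intervals for counting error and dashed lines the shares over the whole lists (14.7% and 25.6%). Chromosome 9 is highest in red and chromosome 19 lowest in blue.

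The surplus on chromosome 9 stood mostly in its first 90 Mb, a boundary chosen after the values were seen. There 189 of 508 siCHD5 intervals were unmatched (37.2%, 33.0 to 41.6), against 167 of 651 beyond it (25.7%, 22.3 to 29.2). The siNC-only shares were 14.0% (52 of 371) and 10.7% (58 of 543). The surplus was not even within the first 90 Mb: at 30 to 40 Mb the siCHD5-only share was 27.5% (30 of 109). Of 255 stretches of 10 Mb with at least 50 intervals in each list, the pair with the highest siCHD5-only share were both on chromosome 9, at 70 to 80 Mb (41.6%, 37 of 89) and 80 to 90 Mb (34 of 85). The median stretch had 25.5% (quartiles 21.9 and 29.0). Pull-down reads at shared sites were 1.19 times those of siNC in the first 90 Mb of chromosome 9 and 1.23 times beyond, near the 1.21 over all chromosomes. The lowest siCHD5-only share, 9.49% (13 of 137, 5.15 to 15.7), was found on chromosome X at 100 to 110 Mb. There siNC had more intervals, 144 with 20 unmatched. Chromosome X at 30 to 40 Mb had the highest siNC-only share, 32.1% (18 of 56, 20.3 to 46.0), and 38.7% of its siCHD5 intervals (24 of 62) were unmatched as well.

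At a finer scale unmatched sites were spread widely. Of 2835 windows of 1 Mb with any interval, 2002 held a siNC-only interval, 2499 a siCHD5-only interval and 1832 both. No window held more than 11 siNC-only or 17 siCHD5-only intervals. The window with the most siNC-only intervals was chromosome 5 at 140 to 141 Mb (11 of 37 siNC intervals, 29.7%). There 8 of 34 siCHD5 intervals (23.5%) were siCHD5-only. Windows with 9 siNC-only intervals included chromosome 6 at 27 to 28 Mb (of 30), chromosome 12 at 54 to 55 Mb (of 44), chromosome 16 at 30 to 31 Mb (of 44) and chromosome 17 at 37 to 38 Mb (of 32). Their siNC-only shares were 30.0%, 20.5%, 20.5% and 28.1%, against 14.7% over the whole list. Their siCHD5-only shares were 27.6% (8 of 29), 27.1% (13 of 48), 30.0% (15 of 50) and 41.0% (16 of 39), against 25.6%. Windows were picked by count, which favours those with many intervals. Those with the most siCHD5-only intervals were chromosome 22 at 39 to 40 Mb (17 of 47 siCHD5 intervals) and chromosome 17 at 27 to 28 Mb (16 of 41) and 37 to 38 Mb (16 of 39). On chromosome 1 at 161 to 162 Mb 15 of 31 siCHD5 intervals had no siNC partner, against 3 of 19 siNC intervals with no siCHD5 partner.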

How the data were processed

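The series' 6 TET1 ChIP-seq peak lists were read as deposited, and the siNC and siCHD5 lists were compared. The submitters' processing notes name the build hg19, MACS2 2.1.2, Bowtie2 2.3.4 and FastQC 0.11.7, besides bedtools 2.25.0, SAMtools 1.9 and, last, deepTools 3.5.0, with no role or setting. Filters and duplicate removal are not given in the sources used here. Within each list the deposited fold is a ratio, pull-down reads over background at the summit. The deposited −log10 p-value and q-value refer to the summit too, and the deposited score is 10 times the latter, truncated. Summit positions were deposited as offsets from the start. Rows with the same interval were counted once, with the summit of highest fold (28450 rows gave 28072 intervals in siNC, 32749 gave 32208 in siCHD5). Pull-down reads and background were solved from fold and p, with a pseudocount of 1 and a tolerance of 0.02 on −log10 p, for 99.99% of intervals of each list. Python 3.11.15, pandas 2.3.3 and SciPy 1.17.1 were used, and matching, distances and read recovery were tested on simulated data. No test was run, since each group is 1 list and peaks are not replicates. Named regions followed rules on rank difference, fold, distance, width, partners and 1-Mb windows (the first 10 or 5 of each, of which the leading ones are described). Members, rules and lists were chosen with earlier results of these data known. No annotation of the build was used here.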

Additional observations from a re-analysis of the deposited data

How the results depend on the processing

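Alternatives were set against the counting interval of each value (for medians the binomial interval of the order statistics, for rho Fisher's). Of 66 comparisons 24 stayed inside it and 42 did not, and the cause was not tested where the alternative's construction does not show it. Counting deposited rows, or chromosomes 1 to 22, X and Y alone, moved none of the 8 values. The shares of siNC and siCHD5 intervals matched were 82.8% and 72.2% with overlap of 50% of both intervals, 84.0% and 73.2% with summits within 100 bp, 86.2% and 75.6% with gaps up to 1 kb, 88.0% and 78.2% at 4-fold or more, 89.98% and 78.8% at a −log10 q-value of 5 or more, and 82.2% and 82.2% with lists of equal length. Median widths of siNC-only and siCHD5-only intervals became 255 and 253 bp with the stricter overlap, 253 and 252 bp with summits, 256 and 256 bp at 4-fold, 254 and 254 bp at the q-value minimum, and 252 bp for siCHD5-only with equal lists. Median distances became 15493.5 and 20880 bp with the stricter overlap, 18540 and 22399 bp with summits, 24585 and 27181.5 bp with gaps, 28111 and 32167.5 bp at 4-fold, 27841 and 32672.5 bp at the q-value minimum, and 25644 and 29194.5 bp with equal lists. The summit offset was 9 bp at 4-fold, 9 bp at the q-value minimum and 9 bp with equal lists. Spearman's rho of fold was 0.601 with summits, 0.545 at 4-fold, 0.563 at the q-value minimum and 0.580 with equal lists. Rankings by −log10 q-value (0.762) and by pull-down reads (0.857) were added after the data were seen.

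No paired analysis was possible because each group has 1 list of pooled replicates, and leaving out a replicate was not done for the same reason. Depth per library is unknown, and differences between the lists have no replicate error.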

Other observations

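The 4 other peak lists of the series held 77 to 284 intervals each, against 28072 in siNC and 32208 in siCHD5, which limits the shares of those lists given here. Of the 104 siCHD3 intervals 35 lay on intervals of both lists, 4 on siNC alone, 16 on siCHD5 alone and 49 on neither. For the 77 siCHD4 intervals these numbers were 34, 3, 11 and 29, for the 284 of siMBD2 54, 4, 21 and 205, and for the 188 of siMBD3 34, 4, 21 and 129. siNC-only intervals overlapped by siCHD3, siCHD4, siMBD2 and siMBD3 numbered 4, 3, 4 and 4 of 4114, or 0.0972%, 0.0729%, 0.0972% and 0.0972%. siCHD5-only intervals overlapped numbered 15, 11, 18 and 20 of 8253, or 0.182%, 0.133%, 0.218% and 0.242%. The shared siNC set had 36, 35, 55 and 35 such intervals of 23958, or 0.150%, 0.146%, 0.230% and 0.146%. The shared siCHD5 set had 35, 34, 57 and 35 of 23955, or 0.146%, 0.142%, 0.238% and 0.146%. Many of the overlapped intervals in each set had a control background of 50 reads or more. In the order of lists above these were 28, 28, 28 and 24 of the shared siNC intervals, 3, 3, 2 and 2 of the siNC-only ones, and 10, 8, 7 and 7 of the siCHD5-only ones.

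Intervals with such a high background numbered 47 in siNC and 55 in siCHD5, with median folds of 1.41 and 1.45 and median pull-down reads of 404 and 461. Of these, 37 in each list were shared (78.7%, 64.3 to 89.3, in siNC; 67.3%, 53.3 to 79.3, in siCHD5). Outside the assembled chromosomes, on unplaced or alternative sequences, 30 of 100 siNC intervals (30.0%) and 50 of 120 siCHD5 intervals (41.7%) were unmatched. Chromosome Y carried 11 siNC and 14 siCHD5 intervals, of which 3 and 6 were unmatched, and whether those reads came from chromosome Y was not tested.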
